A study of Mus musculus with 36 samples.

Results

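The 10 genes described here, Nanog, Zfp42, Esrrb, Klf2, Klf4, Klf5, Tbx3, Tfcp2l1, Prdm14 and Tcl1, mark the naive state of mouse pluripotent cells. They were taken by name from a count table of 51734 gene symbols, and all 10 were among the 20511 genes with enough counts to be tested. The table came from mouse E14 embryonic stem cells (ESC), an established line, and from neural precursor cells (NPC) made from them with retinoic acid. At each stage 3 genotypes were measured in 3 libraries each, 18 libraries in all. WT is wild type, dCD carries catalytically dead MLL3 and MLL4, and MLL2dTAG has a degron on MLL2, by which the compound dTAG-13 directs that protein to the proteasome. All 3 enzymes methylate lysine 4 of histone H3, MLL2 mostly at promoters and MLL3 and MLL4 mostly at enhancers. ESC were grown with leukaemia inhibitory factor (LIF) and KnockOut serum replacement. Per the labels, the NPC were collected at day 4 of differentiation, with 2 µM dTAG-13 present since day 1. The labels name dTAG-13 for every library, WT and ESC included, so WT received the compound too, and its duration in ESC is not given in the sources used here. Each genotype is a single line, so the edit and other differences between lines cannot be told apart. The labels do not say whether replicates were separate cultures, and p-values measure the spread between these libraries, which may be technical.

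In naive cells these genes form a circuit that keeps the cells undifferentiated. LIF acts through its receptor, JAK kinases and STAT3, and Klf4 and Tfcp2l1 are direct STAT3 targets. Nanog is a homeobox factor, Esrrb an orphan nuclear receptor, and Klf2, Klf4 and Klf5 are zinc finger factors that can replace one another in part. Tbx3 is a T-box factor that also acts in endoderm and limb development. Prdm14 is a PR-domain factor that restrains FGF signalling and DNA methylation. Zfp42, also known as Rex1, is the usual reporter of the naive state. Tcl1 encodes a co-activator of the kinase AKT, not a DNA-binding factor, and is counted here because it is a classic target of this circuit. Naive cells switch most of these genes off when they leave pluripotency.

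Total counts ranged from 19430860 to 46041277 per library, and the coefficient of variation between replicates, pooled over all groups, was 4.01%, so small changes passed the test. ESC WT replicate 2 stood apart: the chi-square per degree of freedom between replicates was 9.52 and 7.62 for its pairs and 2.15 to 4.15 for all others. ESC WT is the reference of both ESC comparisons with WT and enters the WT stage comparison and both interactions. Without this library 7 of the 10 genes were called in ESC dCD and 9 in ESC MLL2dTAG, as with it. Levels are given as counts-per-million (CPM) over the genes tested, scaled with TMM factors. Changes are log2 fold changes with a standard error (SE) from the edgeR quasi-likelihood test on all 18 libraries. A gene was called at a Benjamini-Hochberg adjusted p under 0.05. The SE was derived from the test statistic and is approximate. It is too small where a very large change rests on few counts, as for most of these genes in NPC. Of the ESC markers, Pou5f1 was at 555 ± 63.9 CPM in ESC WT and at 1.01 ± 0.234 CPM in NPC WT (SD, n = 3). Of 9 neural markers 8 were higher in NPC WT than in ESC WT, against 39.1% of all tested genes, and Sox1 was not called (3.05 ± 0.460 against 3.10 ± 0.240 CPM). Sox2, counted below with the core pluripotency genes, fell from 311 to 14.4 CPM. In NPC WT the neural markers summed to 673 to 685 CPM and 8 endoderm markers to 681 to 718 CPM. By these markers the NPC cultures were not purely neural. The mRNA of the edited genes Kmt2b, Kmt2c and Kmt2d was at 151 to 335 CPM in every library, and since a degron and a catalytic mutation leave the transcript in place, these levels do not check the labels. The MLL2dTAG line stood apart in its Y-linked mRNA, named here after its values were seen. Eif2s3y was at 62.8 to 78.5 CPM in every WT and dCD library, but at 2.25 to 3.44 CPM in ESC MLL2dTAG and 0.104 to 0.132 CPM in NPC MLL2dTAG. Its part in the results below was not tested.

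Promoter sequences of the genes are shown first because STAT3, octamer-binding factors, KLF factors and ESRRB are known regulators within this circuit. RefSeq windows (GRCm38.p6) were given for 7 of the 10 genes in 9 windows, and each was read over the 250 bases before the start, 5′ to 3′ on the gene's strand. Both strands were searched for TTCNNNGAA (STAT), ATGCAAAT (octamer), and TCAAGGTCA with its shorter core AAGGTCA (ESRRB). GGGCGGGG and CACCC, motifs of KLF and the related SP factors, were searched in the same way. The 3 windows printed carry the STAT match, the octamer match and the most GGGCGGGG matches. Capitals mark every match except those to CACCC.
Zfp42, chr8:43307010-43307259, minus strand: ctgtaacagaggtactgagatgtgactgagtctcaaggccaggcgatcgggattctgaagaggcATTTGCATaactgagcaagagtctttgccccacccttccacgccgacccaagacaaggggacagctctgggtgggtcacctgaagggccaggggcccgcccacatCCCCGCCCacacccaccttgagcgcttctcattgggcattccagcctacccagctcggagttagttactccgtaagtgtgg
Esrrb, chr12:86360867-86361116, plus strand: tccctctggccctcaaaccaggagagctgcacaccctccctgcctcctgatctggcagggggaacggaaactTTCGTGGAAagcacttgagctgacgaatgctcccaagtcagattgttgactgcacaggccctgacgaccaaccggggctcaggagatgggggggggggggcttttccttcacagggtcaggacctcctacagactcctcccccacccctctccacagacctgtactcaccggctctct
Klf4, chr4:55532476-55532725, minus strand: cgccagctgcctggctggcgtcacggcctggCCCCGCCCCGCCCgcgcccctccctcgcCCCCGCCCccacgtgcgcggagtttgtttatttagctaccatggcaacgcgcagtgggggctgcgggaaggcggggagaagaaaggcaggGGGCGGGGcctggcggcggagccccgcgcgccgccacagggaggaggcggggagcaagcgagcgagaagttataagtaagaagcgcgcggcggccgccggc
In Zfp42 the octamer lies on the opposite strand, 186 to 179 bases before the start, and a GGGCGGGG match, also on the opposite strand, lies at 81 to 74. In the first of the Esrrb windows the STAT match spans bases 178 to 170 before the start. In Klf4 there are 4 matches to GGGCGGGG, of which the first 2 overlap. Among 32851 promoters of the same length, 7.02% held a STAT match, 1.6% the octamer, 16.1% GGGCGGGG, 52% CACCC, 4.08% AAGGTCA and 0.387% TCAAGGTCA. These promoters were not matched for GC content, which was 71.2% in the Klf2 window and 74% in the Klf4 window. GGGCGGGG was found in 4 of the 9 windows (Zfp42, Klf2, Klf4 and Tcl1), CACCC in 6, and the octamer and the STAT match in 1 each. Neither ESRRB motif was found in any window. Only exact matches were counted, so sites with another base were missed. Both Nanog windows, for example, hold ttttgcat, which differs in 1 base from the octamer read on the opposite strand. These matches describe letters in a short window and are not evidence of binding.

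Compared per length of exon, as CPM per kilobase (RPKM), the genes were ordered as follows in ESC WT. Nanog was highest at 217 ± 11.0 RPKM, followed by Zfp42 at 153 ± 5.04, Esrrb at 92.2 ± 1.12 and Tfcp2l1 at 51.1 ± 3.90. Tcl1 (42.9 ± 2.09), Klf4 (38.6 ± 2.85) and Klf2 (36.1 ± 2.11) came next, and of these Klf4 and Klf2 did not differ beyond their SD. Klf5 (11.1 ± 0.634), Prdm14 (9.57 ± 0.365) and Tbx3 (8.05 ± 0.426) were lowest. The first 4 ranks were the same in all 3 genotypes of ESC. In NPC WT the order was different. Tbx3 was highest at 13.7 ± 0.0557 RPKM, Klf4 followed at 4.60 ± 0.262 and Zfp42 at 2.45 ± 0.293, while Nanog was at rank 5 with 0.764 ± 0.159, within its SD of Tfcp2l1 (0.694 ± 0.0528).

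**Figure D1:**
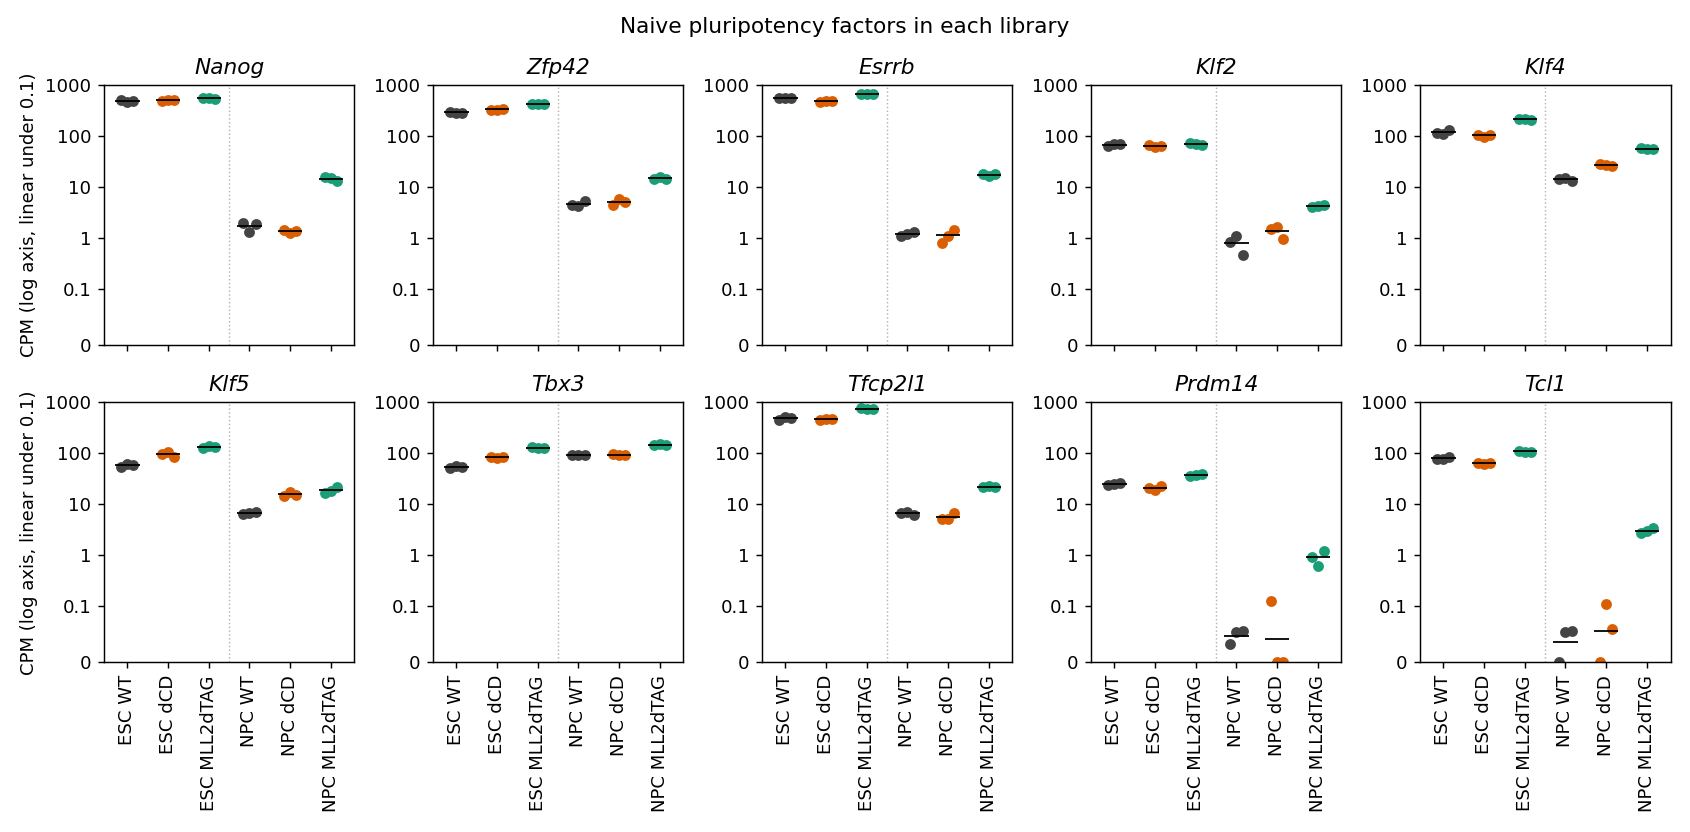
Level of each gene in each of the 18 libraries, in CPM on a log axis that is linear under 0.1. Points are libraries, short lines are means of 3 libraries, and colours are genotypes. Tbx3 alone is not lower in NPC (right of the dotted line) than in ESC of the same genotype, and NPC MLL2dTAG lies above NPC WT in all 10 genes.

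Differentiation of WT cells lowered 9 of the 10 genes and raised Tbx3, against 40.4% of all tested genes lower and 39.1% higher in the same comparison. The median change of the 10 was −6.30, beside −0.04 over all genes. Nanog was at 515, 469 and 476 CPM in the ESC WT libraries and at 1.96, 1.30 and 1.87 CPM in NPC WT, a change of −8.16 (SE 0.07). Esrrb went from 554, 553 and 565 CPM to 1.08, 1.17 and 1.28 CPM (−8.88, SE 0.07). Zfp42 went from 299, 282 and 283 CPM to 4.34, 4.26 and 5.25 CPM (−5.96, SE 0.06). Each of these 3 genes was thus at under 2% of its ESC mean in NPC. Tfcp2l1 fell from 448, 521 and 479 CPM to 6.52, 7.06 and 6.06 CPM (−6.20, SE 0.06). Klf2 fell from 62.4, 67.7 and 70.0 CPM to 0.823, 1.09 and 0.447 CPM (−6.40, SE 0.12), with an SD of 0.324 CPM around a mean of 0.787 CPM in NPC. The lowest ESC library was far above the highest NPC library for both Tfcp2l1 and Klf2. Without single libraries the change ran from −6.73 to −6.10 for Klf2 and from −8.26 to −7.98 for Nanog. These ranges are wider than the SEs of the 2 genes imply. Prdm14 was at 23.5, 24.9 and 25.3 CPM in ESC WT, and 5 counts were left in the 3 NPC WT libraries together. Tcl1, at 75.9, 77.9 and 83.4 CPM in ESC WT, had 4 counts in NPC WT, none of them in replicate 1.

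Klf4 and Klf5 fell less than the 7 genes above. Klf4 was at 114, 111 and 128 CPM in ESC WT and 14.1, 14.8 and 13.2 CPM in NPC WT (−3.07, SE 0.06). Klf5 was at 54.2, 60.8 and 58.2 CPM and then at 6.24, 6.74 and 6.95 CPM (−3.12, SE 0.09). Tbx3 moved the other way, from 50.3, 55.9 and 53.8 CPM to 91.1, 90.5 and 91.1 CPM (0.76, SE 0.04; adjusted p 2.4e-18 in the edgeR test), without overlap between the stages. Its close relative Tbx2 rose from 0.206 ± 0.0699 to 135 ± 4.53 CPM. Endoderm markers rose in the same libraries, and all 8 were higher in NPC WT. Their summed level was 179 to 207 CPM in ESC WT and 681 to 718 CPM in NPC WT, and their part in the Tbx3 level was not tested. In bulk libraries fewer cells that express a gene and less RNA per cell cannot be told apart.

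In the edited lines the same 9 genes fell and Tbx3 rose. In dCD NPC against dCD ESC 9 genes were lower and Tbx3 higher, against 39.0% and 38.7% of all tested genes. In MLL2dTAG the counts were again 9 and 1, against 38.3% and 39.9%. In dCD the falls were −8.76 for Esrrb, −8.53 for Nanog, −6.37 for Tfcp2l1, −6.01 for Zfp42, −5.56 for Klf2, −2.60 for Klf5 and −1.95 for Klf4. In MLL2dTAG they were −5.37 for Prdm14, −5.25 for Esrrb, −5.24 for Nanog, −5.16 for Tcl1, −5.09 for Tfcp2l1, −4.82 for Zfp42, −4.04 for Klf2, −2.83 for Klf5 and −1.91 for Klf4. The median change of the 10 genes was −6.19 in dCD and −4.96 in MLL2dTAG, beside −0.02 and 0.00 over all genes. The rise of Tbx3 was 0.17 (SE 0.04) in dCD and 0.20 (SE 0.04) in MLL2dTAG. With upper-quartile scaling, which moved the median of all genes from 0.00 to −0.11 in MLL2dTAG, both values were 0.08 and neither was called (adjusted p 0.085 and 0.069). In dCD the falls of Prdm14 (−8.92) and Tcl1 (−9.97) rest on 4 and 6 counts in NPC. They were −12.37 without NPC dCD replicate 1 for Prdm14, and −10.84 without replicate 2 and −9.45 without replicate 1 for Tcl1.

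Before differentiation the MLL2dTAG line held more of these transcripts than WT. Of the 10 genes 9 were higher in ESC MLL2dTAG and none lower, against 28.7% of all tested genes higher and 28.2% lower, and the median change was 0.57, beside −0.00 over all genes. Tbx3 changed most, to 132, 127 and 125 CPM (1.26, SE 0.04, from the WT values above). Klf5 reached 127, 137 and 131 CPM (1.19, SE 0.06). Klf4 reached 212, 214 and 208 CPM (0.84, SE 0.05). The lowest MLL2dTAG library of each was above the highest WT library. Tfcp2l1, the other direct STAT3 target, stood at 751, 740 and 743 CPM (0.62, SE 0.04). Prdm14 stood at 35.6, 36.8 and 38.3 CPM (0.59, SE 0.09). Zfp42 stood at 421, 420 and 416 CPM (0.54, SE 0.04). Each of the last 3 rose by less than 2-fold, without overlap with WT.

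The remaining 4 genes changed least in ESC MLL2dTAG. Tcl1 was at 111, 105 and 107 CPM (0.44, SE 0.05). Esrrb was at 655, 660 and 652 CPM (0.23, SE 0.04). Nanog was at 563, 546 and 528 CPM (0.16, SE 0.04; adjusted p 0.00077 in the edgeR test). For these 3 the groups did not overlap, although the highest WT library of Nanog lay close below the lowest MLL2dTAG library. Klf2 was not called, at 71.7, 69.0 and 66.0 CPM, with a change of 0.04 and a 95% interval of −0.10 to 0.18.

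The dCD line differed in both directions in ESC. Among the 10 genes 3 were higher and 4 lower, against 25.7% and 22.6% of all tested genes, so the number of higher genes was near the background. The median change was −0.07, beside 0.02 over all genes. Klf5 rose to 94.0, 103 and 84.7 CPM (0.70, SE 0.07). Tbx3 rose to 82.1, 81.5 and 83.5 CPM (0.62, SE 0.04). Zfp42 rose to 325, 326 and 341 CPM (0.20, SE 0.04). These 3 were also among the genes that rose in ESC MLL2dTAG, a comparison that shares the WT libraries. Tcl1 fell to 63.0, 61.6 and 62.7 CPM (−0.34, SE 0.06). Esrrb fell to 471, 490 and 483 CPM (−0.21, SE 0.04). Klf4 fell to 106, 95.9 and 105 CPM (−0.20, SE 0.05; adjusted p 0.00050 in the edgeR test). All 3 had no overlap with WT. Prdm14 was at 21.0, 18.6 and 22.3 CPM (−0.25, SE 0.09, adjusted p 0.023). It was not called without ESC WT replicate 3 (−0.23, adjusted p 0.076) and without ESC dCD replicate 2 (−0.18, adjusted p 0.16). Nanog (0.03, 95% interval −0.06 to 0.12), Klf2 (−0.07, −0.21 to 0.08) and Tfcp2l1 (−0.07, −0.16 to 0.03) were not called. Without ESC WT replicate 1 Tfcp2l1 was called lower (−0.12, adjusted p 0.018).

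**Figure D2:**
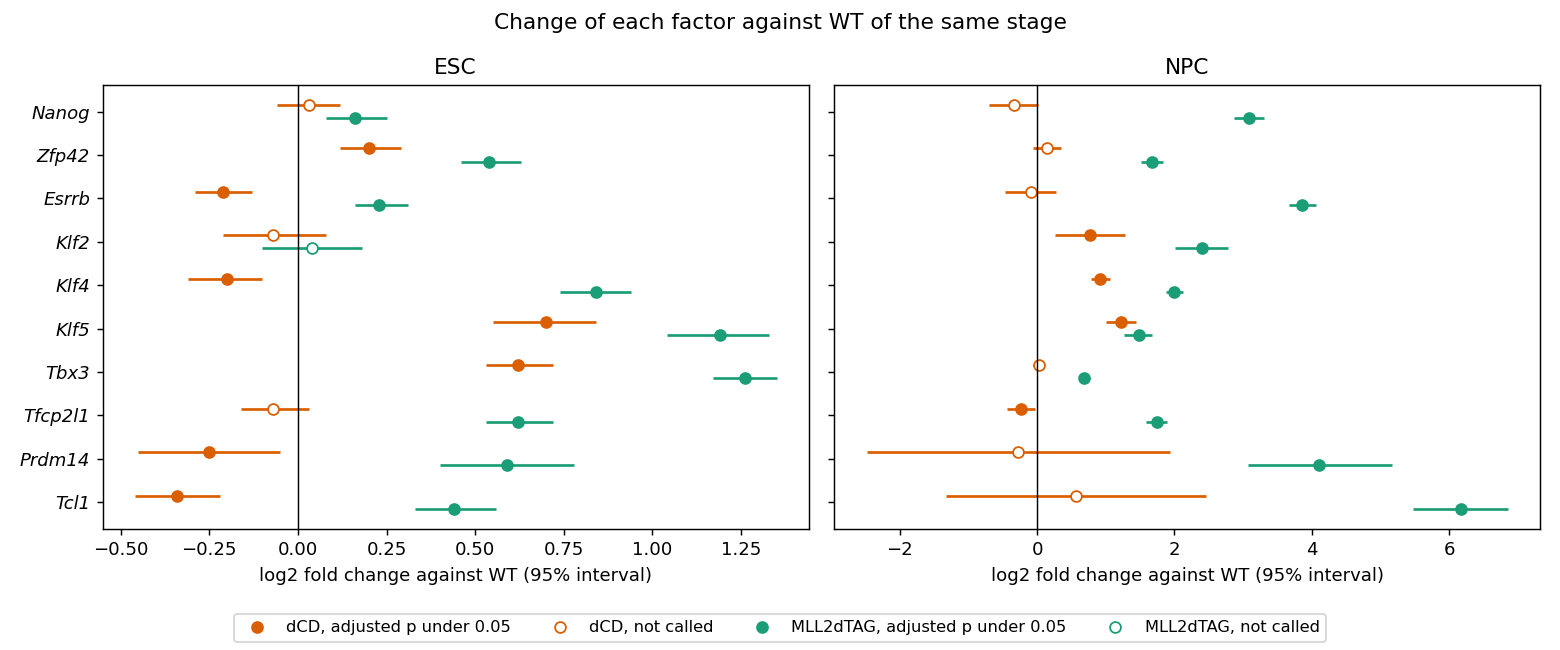
Log2 fold change of each gene against WT of the same stage in ESC (left) and NPC (right), with 95% intervals, on axes of different range. Filled points were called at adjusted p under 0.05 and open points were not; in NPC the MLL2dTAG values run from 0.69 for Tbx3 to 6.17 for Tcl1.

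In NPC the MLL2dTAG line kept every one of the 10 genes above WT. All 10 were called higher, against 33.3% of all tested genes higher and 28.4% lower, with a median change of 2.20 beside 0.03 over all genes. Of all genes called, 54.0% were higher with TMM factors, but 44.7% with upper-quartile factors and 45.7% with library totals, while all 10 stayed called higher. Nanog was at 15.3, 15.0 and 12.9 CPM (3.08, SE 0.10; fold 8.48). Esrrb was at 17.7, 16.0 and 18.1 CPM (3.86, SE 0.09; fold 14.5). Zfp42 was at 14.5, 15.5 and 14.3 CPM (1.68, SE 0.08; fold 3.20). Each NPC MLL2dTAG library lay above the highest NPC WT library for these genes. Tfcp2l1 was at 21.3, 22.2 and 22.0 CPM (1.74, SE 0.07). Klf4 was at 57.7, 55.2 and 56.0 CPM (2.00, SE 0.06). Klf2 was at 4.06, 4.17 and 4.30 CPM (2.40, SE 0.18), and its value was 2.11 without NPC WT replicate 3 and 2.74 without replicate 2. None of the 3 overlapped with WT. Klf5 was at 16.3, 17.7 and 21.4 CPM (1.48, SE 0.10). Tbx3, which WT cells also keep, was at 144, 148 and 147 CPM (0.69, SE 0.04).

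Prdm14 and Tcl1 were close to absent in NPC WT and gained counts in NPC MLL2dTAG. Prdm14 had 104 counts there, against 5 in WT, a ratio of 18.6 per unit of depth with a 95% interval of 7.72 to 58.5. In CPM it was at 0.890, 0.618 and 1.20. Tcl1 had 354 counts against 4, a ratio of 79.2 (95% interval 30.6 to 292), and was at 2.67, 2.96 and 3.39 CPM. The intervals cover counting error only, and a count of 0 in one library leaves room for up to 3 counts, or 0.0652 to 0.154 CPM depending on depth. Both levels in NPC MLL2dTAG were above that limit in every library, and both were far below the 24.5 ± 0.936 and 79.1 ± 3.86 CPM of ESC WT.

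In NPC the dCD line was above WT in the 3 KLF genes. Of the 10 genes 3 were higher and 1 lower, against 26.7% and 26.8% of all tested genes, so the number of higher genes was near the background. The median change was 0.09 beside −0.02 over all genes. Klf4 was at 28.2, 26.2 and 25.3 CPM (0.92, SE 0.06; fold 1.89). Klf5 was at 14.1, 17.1 and 15.3 CPM (1.22, SE 0.10; fold 2.33). Neither overlapped with WT, and the adjusted p in the edgeR test was 7.5e-15 and 7.2e-13. Klf2 was at 1.47, 1.63 and 0.939 CPM (0.77, SE 0.23, adjusted p 0.0053), and its lowest dCD library lay below the highest WT library. The call was lost without NPC WT replicate 3 (0.48, adjusted p 0.084) and without NPC dCD replicate 2 (0.60, adjusted p 0.062).

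Tfcp2l1 was lower in NPC dCD at 5.18, 5.05 and 6.54 CPM (−0.23, SE 0.09, adjusted p 0.035), with overlap. That call was lost without NPC WT replicate 1 (−0.23, adjusted p 0.059) or 2 (−0.17, adjusted p 0.19), and without NPC dCD replicate 1 (−0.18, adjusted p 0.15) or 2 (−0.16, adjusted p 0.21). It was also lost with limma-voom (adjusted p 0.21), in a fit of the 2 groups alone (adjusted p 0.11) and with halved counts (adjusted p 0.10). Without NPC dCD replicate 2 both Klf2 and Tfcp2l1 dropped out, and 2 of the 10 genes were called. Nanog was at 1.41, 1.24 and 1.38 CPM in NPC dCD (−0.34, SE 0.17, adjusted p 0.084), and was called lower without NPC WT replicate 2 (−0.51, adjusted p 0.011). Zfp42 was at 4.45, 5.82 and 5.02 CPM (0.15, adjusted p 0.20) and was called higher without NPC WT replicate 3 (0.25, adjusted p 0.042) or NPC dCD replicate 1 (0.23, adjusted p 0.049). Esrrb was at 0.798, 1.08 and 1.44 CPM, with an interval of −0.46 to 0.27 for the change. Tbx3 was at 97.1, 90.1 and 90.8 CPM, with an interval of −0.06 to 0.11. Prdm14 had 4 counts, all in NPC dCD replicate 1, against 5 in WT, and Tcl1 had 6 against 4. With intervals of 0.162 to 3.79 and 0.363 to 7.37 for the ratio, a difference was not detectable at this depth.

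Set against the ESC level of the same line, the share kept in NPC was highest in MLL2dTAG for 7 of the 10 genes by their ranges, and Klf4, Klf5 and Tbx3 differed from this. Nanog kept 0.352% ± 0.0732 in WT, 0.271% ± 0.0181 in dCD and 2.64% ± 0.236 in MLL2dTAG (SD, n = 3). Esrrb kept 0.211% ± 0.0187, 0.229% ± 0.0666 and 2.63% ± 0.166. For both genes dCD lay near WT, and MLL2dTAG lay above both. Prdm14 and Tcl1 kept 2.45% ± 0.789 and 2.79% ± 0.337 in MLL2dTAG, so that these 4 genes had mean shares of 2.45% to 2.79% in that line. Tfcp2l1 (2.93% ± 0.0644) and Zfp42 (3.52% ± 0.160) had slightly higher means, while in WT the means of these 6 genes ranged from 0.0460% to 1.61%. The libraries of Tfcp2l1 (2.86% to 2.98%) lay within the range of Prdm14 (1.68% to 3.25%). Pou5f1 kept 0.182% in WT, 0.204% in dCD and 4.34% in MLL2dTAG, and Sox2 kept 4.63%, 14.2% and 6.35%. Klf4 kept 11.9% ± 0.678 in WT, 26.0% ± 1.42 in dCD and 26.7% ± 0.591 in MLL2dTAG. For this gene the ranges of the edited lines overlapped, 24.8% to 27.5% and 26.2% to 27.3%, although their ESC levels differed. Klf2 kept 1.18% ± 0.486, 2.11% ± 0.566 and 6.07% ± 0.175 in the same order of lines, and Klf5 kept 11.5% ± 0.639, 16.5% ± 1.58 and 14.0% ± 2.00, with overlap between the edited lines. Tbx3 was at 170% ± 0.692 of its ESC level in WT, 112% ± 4.67 in dCD and 115% ± 1.67 in MLL2dTAG. Its NPC level was 90.9 ± 0.369 CPM in WT, 92.6 ± 3.85 CPM in dCD and 147 ± 2.13 CPM in MLL2dTAG.

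**Figure D3:**
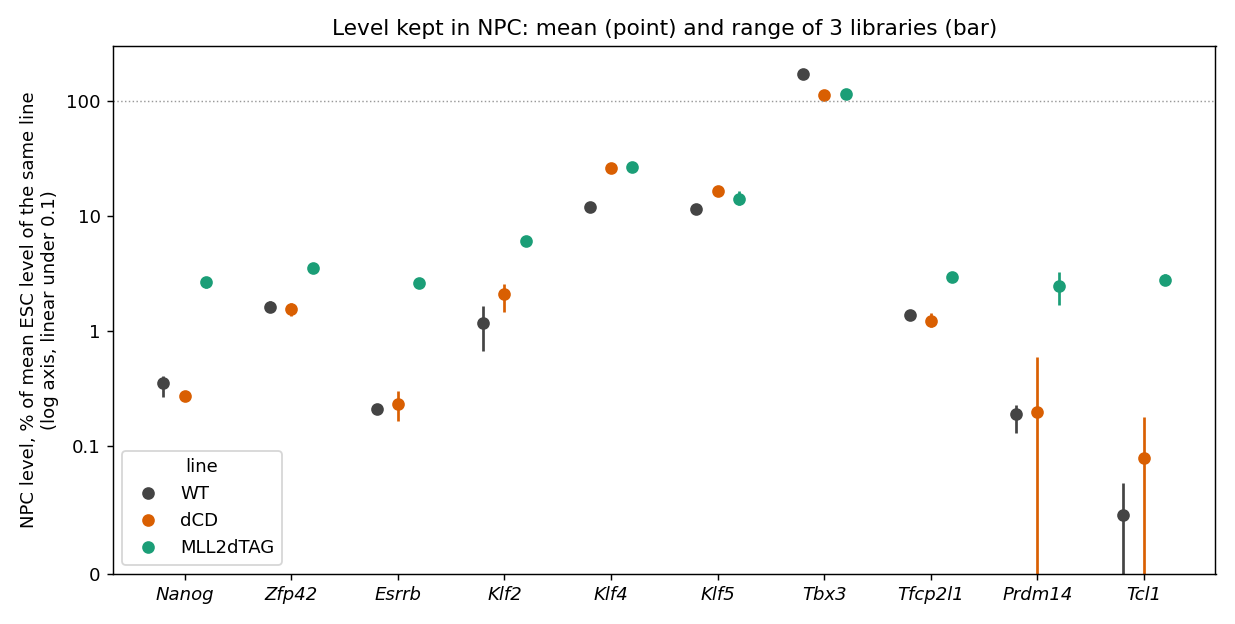
Level of each gene in NPC as percent of the mean ESC level of the same line, on a log axis that is linear under 0.1. Points are means and bars the range of 3 libraries; the dotted line marks an equal level at both stages. Mean shares in MLL2dTAG for Nanog, Esrrb, Prdm14 and Tcl1 lie between 2.45% and 2.79%, with single libraries of Prdm14 from 1.68% to 3.25%.

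An interaction term tested whether the gap between a line and WT changed from ESC to NPC. For MLL2dTAG 9 of the 10 genes had a more positive and 1 a more negative difference in NPC, against 26.4% and 22.6% of all tested genes, with a median of 1.76 beside 0.05. The values were 5.72 (SE 0.35) for Tcl1, 3.62 (SE 0.10) for Esrrb, 3.53 (SE 0.52) for Prdm14, 2.92 (SE 0.11) for Nanog and 2.36 (SE 0.19) for Klf2. Klf4 (1.16, SE 0.07), Zfp42 (1.13, SE 0.09) and Tfcp2l1 (1.11, SE 0.08) gained less. Tbx3 went the other way (−0.57, SE 0.06). Klf5 was at the edge of the threshold (0.29, SE 0.12, adjusted p 0.040), and its call was lost under 6 other settings of scaling, filter or tool. It was 0.17 without NPC MLL2dTAG replicate 3 (adjusted p 0.23). It was also not called without ESC WT replicate 2 (0.25) or 3 (0.28), ESC MLL2dTAG replicate 1 (0.26) or 3 (0.29), or NPC WT replicate 1 (0.25) or 2 (0.30).

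For dCD 3 genes had a more positive and 1 a more negative difference in NPC, against 20.0% and 22.9% of all tested genes, with a median of 0.05 beside −0.04. Klf4 stood out (1.12, SE 0.08), since it was below WT in ESC and above WT in NPC. Klf2 (0.84, SE 0.24, adjusted p 0.0050) and Klf5 (0.52, SE 0.12) were also more positive, and Tbx3 more negative (−0.60, SE 0.06). The Klf2 value lost its call without NPC WT replicate 3 (0.54, adjusted p 0.067) and without NPC dCD replicate 2 (0.66, adjusted p 0.052). Zfp42 (−0.06, 95% interval −0.28 to 0.17), Esrrb (0.12, −0.26 to 0.49), Prdm14 (−0.02) and Tcl1 (0.91, −1.04 to 2.86) were not called. Prdm14 had 4 counts in NPC dCD, all in replicate 1, and its value was −3.47 without that library. No interval is given for it, since the SE is unreliable there. Tcl1 was at 0.03 without NPC dCD replicate 2 and at 1.43 without replicate 1. Nanog (−0.37, adjusted p 0.080) was called only without ESC WT replicate 1 (−0.41, adjusted p 0.039) or NPC WT replicate 2 (−0.54, adjusted p 0.011). Tfcp2l1 (−0.16, adjusted p 0.21) was called only without ESC WT replicate 2 (−0.23, adjusted p 0.036) or NPC dCD replicate 3 (−0.29, adjusted p 0.025).

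The edited lines were also compared directly. In ESC 9 genes were higher in MLL2dTAG than in dCD and none lower, against 23.4% and 23.7% of all tested genes, with a median of 0.56 beside −0.01. Klf4 differed most (1.05, SE 0.05), followed by Prdm14 (0.84), Tcl1 (0.79), Tfcp2l1 (0.69), Tbx3 (0.63), Klf5 (0.49), Esrrb (0.45) and Zfp42 (0.34). Klf2 was not called (0.11, 95% interval −0.03 to 0.25). Nanog differed by 0.14 (SE 0.04, adjusted p 0.0062), which was 0.08 and not called with upper-quartile scaling (adjusted p 0.10). In NPC all 10 were higher in MLL2dTAG, against 31.6% of all genes higher and 24.3% lower, with a median of 1.80 beside 0.05. Of all genes called in that comparison, 56.5% were higher with TMM factors, but 45.2% with upper-quartile factors and 45.3% with library totals. Esrrb differed by 3.95 (SE 0.09), Nanog by 3.42 (SE 0.10) and Tfcp2l1 by 1.97 (SE 0.07). Klf2 differed by 1.63 (SE 0.16), Zfp42 by 1.53 (SE 0.07), Klf4 by 1.08 (SE 0.05) and Tbx3 by 0.66 (SE 0.04). Klf5 differed least (0.26, SE 0.08, adjusted p 0.0088), with overlap, and was not called with upper-quartile scaling or library totals (0.17 in both), without NPC dCD replicate 1 (0.20) or without NPC MLL2dTAG replicate 3 (0.14). Prdm14 differed by 4.38 (SE 0.50), which was 7.83 without NPC dCD replicate 1, the only dCD library with counts of it, and 3.80 without replicate 2. Tcl1 differed by 5.60 (SE 0.30), with 6.48 without NPC dCD replicate 2.

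Other genes of the pluripotency network were counted from fixed lists. Of 8 core pluripotency genes 7 were higher and 1 lower in NPC MLL2dTAG, against 33.3% and 28.4% of all tested genes, with a median of 1.30. Under each of 3 other scalings 6 were higher. Pou5f1, which encodes OCT4, rose from 1.01 ± 0.234 to 26.9 ± 2.08 CPM (4.72, SE 0.12), and Lin28a fell by 0.40 (SE 0.05). In NPC dCD 3 were higher and 3 lower, against 26.7% and 26.8% of all tested genes. Dppa2 was at 9.71 ± 0.228 CPM against 0.834 ± 0.198 CPM in WT, while Pou5f1 was not called (0.32, adjusted p 0.26 in the edgeR test). Sox2 was higher in NPC dCD (0.98, SE 0.07) and in NPC MLL2dTAG (0.27, SE 0.07), and lower in ESC of both lines (−0.63 and −0.19). Of 10 other genes of the naive state, 7 were higher and 1 lower in NPC MLL2dTAG (Fgf4 3.39, SE 0.26, and Tet2 −0.36, SE 0.05). In NPC dCD 1 was higher and 4 lower (Gbx2 0.38 and Nr0b1 −1.11, both with overlap). The shares of all tested genes are those given above for the same comparisons. Dppa3 had no count in any NPC library. In ESC the same 10 genes were split. In dCD 5 were higher and 5 lower, against 25.7% and 22.6% of all tested genes. In MLL2dTAG 6 were higher and 4 lower, against 28.7% and 28.2%. Gbx2 was highest (2.35 and 2.73) and Dppa3 lowest (−1.33 and −1.28) in both lines.

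The LIF pathway feeds these factors. Of 10 genes from the receptor to STAT3 targets, 7 were higher and 1 lower in ESC MLL2dTAG (median 0.27), against 28.7% and 28.2% of all tested genes, with Myc up (2.43, SE 0.07) and Pim1 down (−1.05, SE 0.04). In ESC dCD 2 were higher and 3 lower (median −0.01), near the 25.7% and 22.6% of all tested genes, again with Myc (2.06) and Pim1 (−0.52) at the ends. Against 26.7% and 26.8% of all tested genes, 7 were higher and 1 lower in NPC dCD (Junb 1.56, SE 0.11; Pim3 −0.85, SE 0.06), and against 33.3% and 28.4%, 8 were higher and 2 lower in NPC MLL2dTAG (Lifr 1.57, SE 0.05; Bcl3 −0.59, SE 0.10). Lifr, the LIF receptor, fell during differentiation of WT cells (−0.76, SE 0.05) but rose in dCD (0.70, SE 0.05) and in MLL2dTAG (0.52, SE 0.05). In WT 9 of the 10 genes were lower in NPC and none higher, against 40.4% and 39.1% of all tested genes. In dCD 5 were higher and 5 lower, against 38.7% and 39.0%.

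Genes of the later, formative and primed states went opposite ways in ESC of the edited lines. Of all tested genes, 25.7% were higher and 22.6% lower in ESC dCD, and 28.7% and 28.2% in ESC MLL2dTAG. In NPC the shares were 26.7% and 26.8% in dCD and 33.3% and 28.4% in MLL2dTAG. Of 9 formative and primed genes 8 were higher and none lower in ESC dCD (median 0.49), with Sall2 at 1.17 (SE 0.05). In ESC MLL2dTAG none was higher and 7 were lower (median −0.50), with Fgf5, an epiblast growth factor, at 1.52 ± 0.103 CPM against 6.82 ± 0.798 CPM in WT (−2.15, SE 0.14). Between the lines all 9 were lower in ESC MLL2dTAG than in ESC dCD (median −1.03), against 23.7% of all tested genes. In NPC both directions were present, in numbers near the shares of all tested genes. In dCD 3 were higher and 3 lower (Otx2 1.56, with overlap, and Dnmt3b −0.52). In MLL2dTAG 3 were higher and 2 lower (Otx2 2.03, from 8 to 38 counts, and Zic2 −0.93). Of 8 genes linked to exit from the naive state, 6 were higher and 1 lower in ESC MLL2dTAG (Rbpj 0.43 and Flcn −0.44). With upper-quartile scaling 4 were higher there. In NPC MLL2dTAG 6 of these genes were higher and 1 lower (Etv5 1.78 and Tcf7l1 −0.54). In dCD they were 3 higher and 3 lower in ESC (Zfp281 0.51; Flcn −0.46) and 5 higher and 3 lower in NPC (Tfe3 0.28; Etv5 −0.34). Of 10 family relatives, 3 were higher and 3 lower in each of the 4 comparisons with WT, near the shares of all tested genes. Among those called with a mean of at least 5 CPM, Klf3 rose most in ESC (0.39 in dCD and 0.79 in MLL2dTAG) and Klf6 in NPC (0.68 and 1.28). Prdm1 fell most in ESC, from 21.5 CPM in WT to 15.1 CPM in dCD and 8.01 CPM in MLL2dTAG. Tbx2 fell most in NPC, from 135 CPM in WT to 92.3 CPM in dCD and 78.1 CPM in MLL2dTAG.

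**Figure D4:**
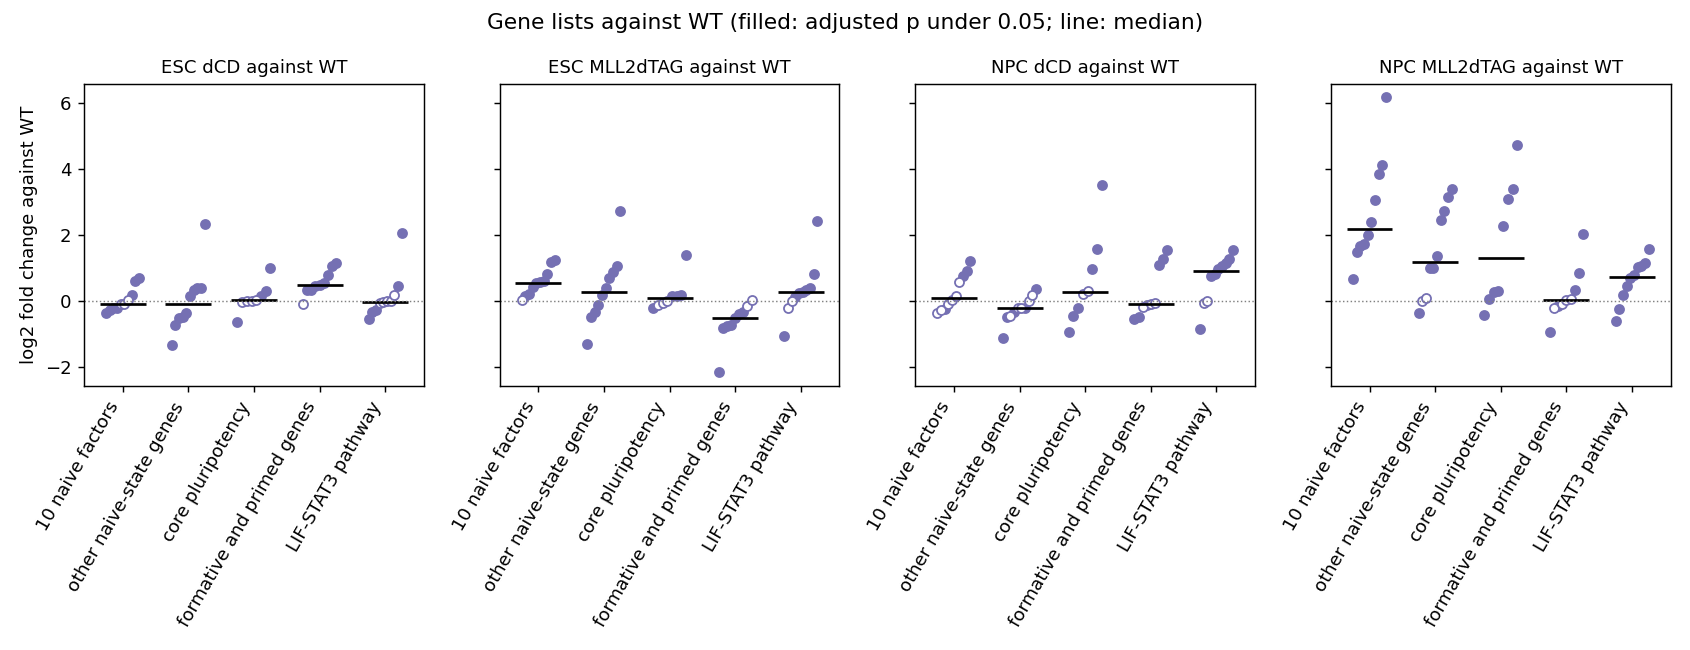
Log2 fold change against WT of the 10 naive factors and of 4 other gene lists in ESC and NPC of both edited lines. Each point is a gene, filled where called, and lines are list medians. In NPC MLL2dTAG the naive factors have a median of 2.20 and the core pluripotency genes of 1.30, and in ESC the formative and primed genes lie at 0.49 in dCD and −0.50 in MLL2dTAG.

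Markers of several cell types also moved with genotype, although some of them are expressed by ESC themselves. The summed level of 8 endoderm markers was 681 to 718 CPM in NPC WT, 544 to 580 CPM in NPC dCD and 1972 to 1998 CPM in NPC MLL2dTAG. All 8 were higher in NPC MLL2dTAG than in WT, so that endoderm markers rose in the same libraries as the naive genes. Lama1 made up much of the sum, at 285 CPM in NPC WT and 1149 CPM in NPC MLL2dTAG. The sum of 9 neural markers was 673 to 685 CPM in NPC WT, 808 to 871 CPM in NPC dCD and 714 to 734 CPM in NPC MLL2dTAG. Of these 9, 5 were higher and 3 lower in NPC MLL2dTAG than in WT (3 and 3 with upper-quartile factors or library totals), with Nes at 156 ± 2.05 against 91.2 ± 1.08 CPM and Pax6 at 26.4 ± 0.892 against 38.9 ± 1.16 CPM. The sum of 6 epithelial markers was 377 to 403 CPM in NPC WT, 263 to 266 CPM in NPC dCD and 169 to 171 CPM in NPC MLL2dTAG, and all 6 were lower in both edited lines. Of 6 trophoblast markers 1 was higher and 3 lower in NPC MLL2dTAG. Their sum was 393 to 400 CPM in NPC WT, 297 to 307 CPM in NPC dCD and 220 to 238 CPM in NPC MLL2dTAG. Between NPC WT and NPC MLL2dTAG it followed the keratins Krt8 (142 against 106 CPM) and Krt18 (249 against 115 CPM). Cdx2 rose from 0.759 to 1.40 CPM, and Tfap2c was not called (3.53 against 3.35 CPM). Tfap2c was at 71.2 CPM in ESC WT. Of 8 mesenchyme markers 4 were higher and 4 lower in NPC MLL2dTAG, with a median of −0.03. Their sum was 721 to 743 CPM in NPC WT, 918 to 1004 CPM in NPC dCD and 1070 to 1084 CPM in NPC MLL2dTAG, and it followed Col3a1 (295 against 716 CPM), while Col1a2 (153 against 21.3 CPM), Col1a1 (156 against 99.8 CPM), Prrx1 (10.3 against 3.50 CPM) and Thy1 (5.87 against 1.23 CPM) fell. These markers moved in ESC too. The endoderm sum was 179 to 207 CPM in ESC WT, 133 to 139 CPM in ESC dCD and 355 to 372 CPM in ESC MLL2dTAG. In the last, 4 of 8 markers were higher and 1 lower. Most of the sum was Lama1, at 129 CPM in ESC WT and 285 CPM in ESC MLL2dTAG, while Dab2 was at 45.2 and 42.8 CPM. Mesenchyme markers summed to 494 to 611, 776 to 869 and 882 to 937 CPM in the same order, and all 8 were higher in both edited lines. Neural markers summed to 164 to 176, 209 to 222 and 204 to 215 CPM, and in ESC dCD 7 of 9 were higher and none lower. Epithelial markers summed to 1081 to 1118, 732 to 752 and 556 to 574 CPM, and all 6 were lower in both edited lines. Among them Cdh1 was at 592 CPM and Epcam at 240 CPM in ESC WT, so this list does not mark only cells other than ESC. In ESC, 5 markers of the rare 2-cell-like state summed to 16.0 to 16.9 CPM in WT, 94.5 to 99.8 CPM in dCD and 0 to 0.0621 CPM in MLL2dTAG, and all 5 were called in each line. The part of these cell types in the levels of the naive genes was not tested. Beside the marker counts, 33.3% of all tested genes were higher and 28.4% lower in NPC MLL2dTAG. The shares were 26.7% and 26.8% in NPC dCD, 25.7% and 22.6% in ESC dCD and 28.7% and 28.2% in ESC MLL2dTAG.

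For 9 of the genes the other tested gene with the most similar pattern was found by Pearson correlation of log2 CPM over the 18 libraries, leaving out genes whose mean was under 5 CPM. The stage sets most of this pattern, since all points share 2 stages and 3 lines. Nanog was nearest to Etv5 (0.9987), Esrrb to Dppa5a (0.9982), Prdm14 to Dnmt3l (0.9963) and Tcl1 to Esrrb (0.9961). Zfp42 and Tfcp2l1 had the same nearest gene, Ptpn3 (0.9977 for both). The values were 0.9958 for Klf2 with Zfp980, 0.9936 for Klf5 with Nsf and 0.9918 for Klf4 with Fam188a. Nanog has processed pseudogenes of near-identical sequence, and how reads shared with copies were counted is not given in the sources used here.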

How the data were processed

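The authors deposited raw counts per gene symbol, made with HTSeq per the submitters' processing notes; the aligner and build are not given in the sources used here. Libraries were made with a stranded mRNA kit, per the labels' protocols. Columns were matched to samples by name. In the table used, 6 columns with repeated names, and 12 columns of another table that match no label, were not analysed here, nor were 18 of the 36 samples. All 37 mitochondrial symbols were at 0 counts.

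The test was run with edgeR 4.0.16 in R 4.3.3: filterByExpr by group, TMM factors (0.967 to 1.05), 1 mean per group over 18 libraries, 12 residual degrees of freedom, a common dispersion of 0.00161, and a two-sided quasi-likelihood F test, and p-values adjusted after Benjamini and Hochberg over 20511 genes. The SE is the size of the log2 change divided by the square root of F. The limit for a count of 0 was 3 counts, or 0.0652 to 0.154 CPM at 19430860 to 46041277 counts per library. Intervals of ratios are exact for counts and cover counting error only. Lengths are the union of GENCODE M21 exons. The test was tested on simulated data with 200 changed genes. Alternatives were other scalings, filters, DESeq2 1.42.0, limma 3.58.1, the 2 groups alone, a replicate block, halved counts and leaving out each library.

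The genes and lists were chosen with earlier results of these data known. A value is given for each of the 10 genes in every comparison, as a change or as counts. As examples, the text names called genes with the largest rise or fall of a list at a mean of at least 5 CPM, but not every such gene. It also names Pou5f1 and Sox2, and for each of the 10 the gene of nearest pattern. The nearest gene of Tbx3 is not reported here. Other genes were named after their values were seen, or to check lines and cell types.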

Additional observations from a re-analysis of the deposited data

Results flagged for a closer look

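The results below were picked out because the difference of an edited line from WT was not the same in NPC as in ESC, by the interaction term of the edgeR quasi-likelihood fit with Benjamini-Hochberg adjustment over all genes. For MLL2dTAG the difference was more positive in NPC for Tcl1 (5.72, adjusted p 4.0e-16), Esrrb (3.62, adjusted p 3.2e-25), Prdm14 (3.53, adjusted p 4.7e-07), Nanog (2.92, adjusted p 6.4e-22) and Klf2 (2.36, adjusted p 9.1e-13). Smaller values were found for Klf4 (1.16, adjusted p 2.0e-15), Zfp42 (1.13, adjusted p 2.3e-13), Tfcp2l1 (1.11, adjusted p 1.7e-13) and Klf5 (0.29, adjusted p 0.040). Tbx3 had a more negative difference in NPC (−0.57, adjusted p 1.6e-10): its excess over WT was 1.26 in ESC and 0.69 in NPC. For dCD the difference was more positive in NPC for Klf4 (1.12, adjusted p 4.4e-14), Klf2 (0.84, adjusted p 0.0050) and Klf5 (0.52, adjusted p 0.00053), and more negative for Tbx3 (−0.60, adjusted p 1.6e-10).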

How the results depend on the processing

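The number of genes called stayed within 1.5 times the reported one in all 308 values under other settings, and the number of the 10 genes called did so in 307 of 308. The exception was dCD against WT in NPC, with 2 to 4 of the 10 genes called when single libraries were left out. Of 3078 values for single genes 3037 kept their call status, 33 lost the call and 8 gained it, and the cause was not tested. Among values called in either fit 0 reversed. Values called in neither fit could change sign and are counted as kept. For example, Esrrb in NPC dCD was at −0.09, and at 0.08 without NPC dCD replicate 1. The losses were those of Klf5, Tfcp2l1, Prdm14, Klf2, Tbx3 and Nanog given with the results. Counts of the gene lists under other scalings were added after the data were seen. Beside the splits given with the results, 1 LIF pathway gene was higher in NPC WT with library totals, and the other list counts in the text moved by at most 1 gene a direction. Libraries with equal replicate numbers did not deviate together (correlations of −0.16 to 0.08 over 45 pairs), and 2 of 18 libraries correlated best with their own number, so the numbers do not pair the samples. With a replicate block the number of the 10 genes called was the same in all 11 comparisons, for example 7 in ESC dCD and 9 in ESC MLL2dTAG, and 9761 and 11513 genes in all were called in these 2. Depth limits Prdm14 and Tcl1 in NPC WT and dCD, which had 4 to 6 counts per group.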
